A study of Saccharomyces cerevisiae S288C with 9 samples.

Results

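The nuclear tRNA genes of budding yeast are the subject here: 275 of the 7127 gene rows of an RNA sequencing count table, chosen by name and place. A row belonged if its name was the letter t, a capital amino acid letter and a bracketed anticodon, as in tR(UCU)G3, and if it lay on chromosomes I to XVI. Counts came from 9 libraries of total RNA from Saccharomyces cerevisiae S288C, a laboratory reference strain, with 3 biological replicates per strain. The mutants carried Set1 S228A, which puts alanine in place of a serine of the Set1 protein, or Set1 S228E, which puts glutamate at the same place; the third strain was the WT control. All cultures were untreated, were grown in YPD, a rich glucose medium, and were taken in mid-log phase. The sources used here do not say how each substitution was made or how many clones stand behind each strain.

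Set1 is the enzyme within COMPASS that methylates lysine 4 of histone H3 at transcribed genes. tRNA genes are transcribed by RNA polymerase III from promoter elements inside the transcribed sequence, the A and B boxes, which TFIIIC binds before it places TFIIIB upstream. Yeast retrotransposons insert next to these genes. Ty3 in particular inserts at the RNA polymerase III start site and leaves its long terminal repeat, also called sigma, a few bases before the tRNA. The Ty3 repeat carries the promoter for RNA polymerase II transcription of Ty3, which mating pheromone induces through Ste12, a factor that binds the pheromone response element TGAAACA.

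The sequences shown first are those of 4 tRNA genes beside a same-strand Ty3 repeat that were much higher in S228A, with 1 gene of each other kind of surroundings for comparison. All come from RefSeq, build R64, the same sequence as the sacCer3 build named in the submitters' processing notes; all 275 rows had the same position and strand there. Each gene is printed 5′ to 3′ on its own strand without its intron, in lower case with the anticodon in capitals. The genes lay at chrVII:736340-736411 on the plus strand, chrV:434541-434612 on the minus strand, chrXII:374355-374427 on the plus strand, chrIX:210665-210738 on the plus strand, chrIV:992832-992902 on the plus strand and chrVII:878710-878815 on the minus strand; only the last of these 6 has an intron.
tR(UCU)G3: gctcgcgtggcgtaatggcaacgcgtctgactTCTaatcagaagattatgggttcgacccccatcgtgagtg
tH(GUG)E2: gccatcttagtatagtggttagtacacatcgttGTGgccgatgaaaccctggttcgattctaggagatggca
tR(ACG)L: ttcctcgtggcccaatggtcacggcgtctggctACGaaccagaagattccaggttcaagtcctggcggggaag
tI(AAU)I2: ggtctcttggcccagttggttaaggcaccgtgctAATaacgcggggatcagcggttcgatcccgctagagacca
tG(GCC)D2: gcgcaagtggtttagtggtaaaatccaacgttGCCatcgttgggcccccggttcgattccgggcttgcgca
tW(CCA)G2: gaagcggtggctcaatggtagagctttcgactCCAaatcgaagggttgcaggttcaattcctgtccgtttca

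The 300 bases before the 5′ end of 4 of them are shown because the results below divide by what stands there. The windows are chrVII:736040-736339 on the plus strand, chrV:434613-434912 on the minus strand, chrIV:992532-992831 on the plus strand and chrVII:878816-879115 on the minus strand. They are printed 5′ to 3′ on the strand of the tRNA, ending at the base before it, with capitals where TGAAACA or its reverse complement TGTTTCA occurs. The first 2 windows hold a Ty3 repeat in the orientation of the tRNA, the third holds a Ty3 repeat fragment in the other orientation, and the last holds no annotated Ty3 repeat.
tR(UCU)G3 upstream: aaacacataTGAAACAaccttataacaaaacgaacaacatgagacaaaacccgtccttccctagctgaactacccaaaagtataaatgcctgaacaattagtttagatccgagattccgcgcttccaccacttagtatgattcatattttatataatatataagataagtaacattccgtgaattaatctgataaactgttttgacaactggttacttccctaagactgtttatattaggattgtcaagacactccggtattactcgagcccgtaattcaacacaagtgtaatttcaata
tH(GUG)E2 upstream: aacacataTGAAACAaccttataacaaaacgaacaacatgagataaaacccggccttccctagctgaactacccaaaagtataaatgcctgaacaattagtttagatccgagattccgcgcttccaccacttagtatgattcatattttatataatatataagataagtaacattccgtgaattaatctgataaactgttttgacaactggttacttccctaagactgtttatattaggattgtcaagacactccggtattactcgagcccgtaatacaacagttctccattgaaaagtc
tG(GCC)D2 upstream: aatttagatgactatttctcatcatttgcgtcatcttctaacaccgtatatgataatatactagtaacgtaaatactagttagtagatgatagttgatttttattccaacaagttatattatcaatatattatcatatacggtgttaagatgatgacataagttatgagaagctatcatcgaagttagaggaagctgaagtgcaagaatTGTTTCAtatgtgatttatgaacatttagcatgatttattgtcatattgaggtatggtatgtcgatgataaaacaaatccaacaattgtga
tW(CCA)G2 upstream: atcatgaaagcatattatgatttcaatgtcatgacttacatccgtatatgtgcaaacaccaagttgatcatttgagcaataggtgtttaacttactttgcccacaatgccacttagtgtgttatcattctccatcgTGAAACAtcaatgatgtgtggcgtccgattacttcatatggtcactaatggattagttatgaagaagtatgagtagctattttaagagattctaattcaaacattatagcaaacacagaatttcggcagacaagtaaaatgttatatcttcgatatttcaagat

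tRNA rows together were several times as abundant in S228A libraries as in S228E or WT libraries, and most of the surplus lay in a few rows. The summed tRNA counts were 2469, 3094 and 2867 in S228A libraries, 623, 517 and 459 in S228E libraries, and 632, 578 and 612 in WT libraries. Per 1000000 gene counts this was 151.7 ± 13.2 in S228A, 31.2 ± 1.55 in S228E and 33.6 ± 1.66 in WT (SD, n = 3 each). Every S228A library lay above every library of the other strains, and the S228E and WT ranges overlapped. tR(UCU)G3, an arginine tRNA gene, and tH(GUG)E2, a histidine tRNA gene, held 4540 of the 8430 tRNA counts of S228A (53.9%), 19 of 1599 in S228E (1.19%) and 21 of 1822 in WT (1.15%). In bulk RNA a change in the share of cells that carry an RNA cannot be told apart from a change in its amount per cell.

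Library totals were between 14455017 and 19658103 counts, so tRNA rows took a very small share of each. Standard RNA-seq libraries capture mature tRNA poorly, since it is short, modified and folded. Of the 275 rows, 57 had no count in any library, another 120 had between 1 and 9 counts over all 9 libraries, and 15 had 100 or more; the median row had 4. The 275 rows hold only 56 distinct exonic sequences, and up to 16 rows share 1 sequence. No option for reads with several placements and none for strand stands in the counting command, so a row's count rests on read pairs with a single reported placement, on either strand. Among the 254 rows that share their sequence with another row, 54 had no count, and among the 21 rows with a sequence of their own 3 had none. The values below are therefore counts of reads over a tRNA row, which do not separate mature tRNA from longer transcripts that cross it.

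Among the tRNA rows that could be tested, those called in S228A against WT were higher there. edgeR's quasi-likelihood test was applied to the 20 tRNA rows that passed its filter on low counts, with a row called at a Benjamini-Hochberg adjusted p under 0.05 over all tested rows and a fold change over 1.5. In S228A against WT, 12 of the 20 were called higher and 0 lower. Of all 6133 tested rows of the table, 4.37% were called higher and 7.81% lower, 12.2% in all. The median log2 fold change was 1.07 over the 20 tRNA rows and -0.01 over all tested rows. At an unadjusted p under 0.05, 12 tRNA rows were higher and 1 was lower, where 44.7% of all tested rows were under 0.05 in either direction; DESeq2 and limma-voom each called the same 12 rows higher and 0 lower. Only 10 of the 20 rows passed the filter without the S228A libraries, 3 of them called higher, so the other 9 called rows were tested because of their counts in S228A. The 20 tested rows held 9351 of the 11851 tRNA counts, or 78.9%.

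**Figure D1:**
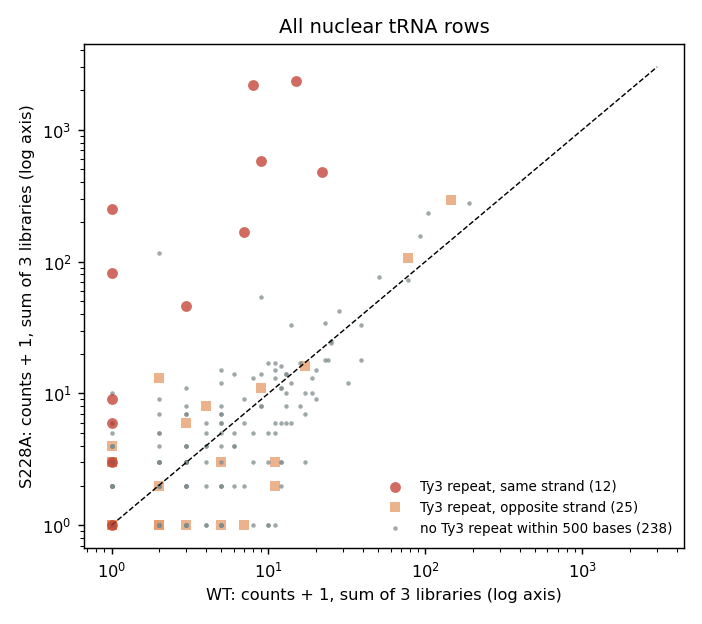
Counts of each of the 275 nuclear tRNA rows, summed over 3 libraries and increased by 1, in S228A (vertical log axis) against WT (horizontal log axis); the dashed line marks equal counts, and marker shape and colour give the nearest Ty3 repeat. Of the 12 rows beside a same-strand Ty3 repeat, 8 stand far above the line; of the 238 rows with no Ty3 repeat, tW(CCA)G2 (115 counts in S228A, 1 in WT) stands farthest above it.

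The called rows were unevenly spread by position. RefSeq annotates 42 Ty3 repeats, and 37 tRNA rows had one within 500 bases. In 36 of the 37 the repeat lay before the 5′ end of the tRNA with 14 to 47 bases between; for tI(AAU)B, which had no count, it lay after the 3′ end. The repeat had the orientation of the tRNA for 12 rows and the other orientation for 25. This division by orientation was made after the values had been seen, so it is described without a test. Beside a same-strand repeat, 7 rows passed the filter and were called higher in S228A, but none of the 7 passed it without the S228A libraries, so their calls follow in large part from how they came to be tested and the count is no support. Beside an opposite-strand repeat, 1 of 2 tested rows was called higher, and with no Ty3 repeat 4 of 11 were. Both opposite-strand rows and 8 of the 11 passed the filter without S228A, 1 and 2 of them called higher.

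The summed counts differed by the same division. The 12 same-strand rows had 1740, 2264 and 2147 counts in S228A libraries, 11, 16 and 16 in S228E libraries, and 13, 15 and 30 in WT libraries. Per 1000000 gene counts they had 110.6 ± 12.04 in S228A, 0.864 ± 0.270 in S228E and 1.09 ± 0.571 in WT, a ratio of 101.8 for S228A over WT. They made up 73.0% of all tRNA counts in S228A, 2.69% in S228E and 3.18% in WT. The 25 opposite-strand rows had 8.29 ± 0.758 in S228A, 5.14 ± 0.675 in S228E and 5.37 ± 0.555 in WT, a ratio of 1.54 for S228A over WT. Over the 263 rows without a same-strand repeat the values were 41.1 ± 2.73 in S228A, 30.4 ± 1.67 in S228E and 32.5 ± 1.10 in WT, a ratio of 1.26 for S228A over WT. The S228A libraries lay above all WT libraries in each of these groups of rows. Without the 12 called rows, the sum was 26.8 ± 2.64 in S228A, 22.9 ± 0.972 in S228E and 26.1 ± 0.460 in WT (SD, n = 3 each); those rows were chosen for being higher in S228A, which lowers what remains there.

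**Figure D2:**
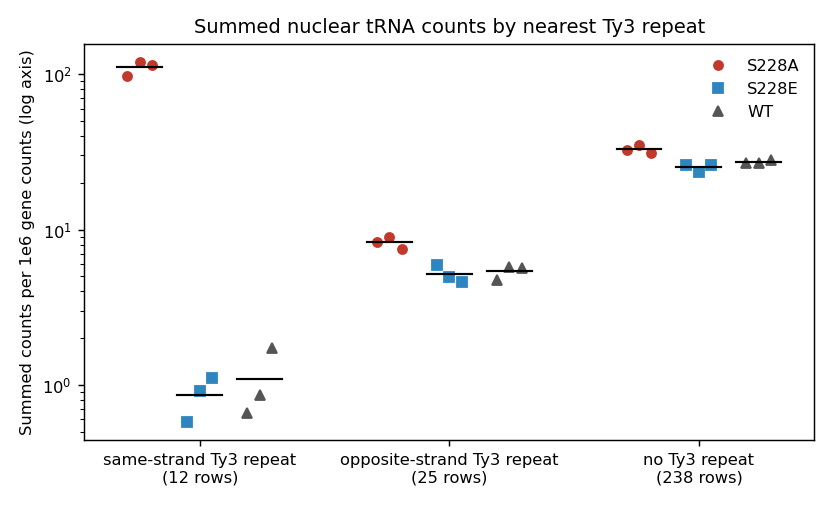
Summed tRNA counts per 1000000 gene counts (log axis) in each library of S228A, S228E and WT, for rows beside a same-strand Ty3 repeat, beside an opposite-strand Ty3 repeat, and with none within 500 bases; black bars are means of 3 libraries. The same-strand rows averaged 110.6 in S228A, 0.864 in S228E and 1.09 in WT, and the other groups of rows lie much closer together.

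The 7 called same-strand rows spanned arginine, histidine, alanine, isoleucine, glycine and aspartate tRNA genes. tR(UCU)G3 had 738, 738 and 876 counts in S228A libraries, against 5, 1 and 8 in WT libraries. Its level was 42.8 ± 5.10 normalised counts per 1000000 (CPM, scaled with TMM factors) in S228A and 0.257 ± 0.1995 CPM in WT, a log2 fold change of 7.33 ± 0.35 (SE; adjusted p = 6.18e-09, edgeR). It and tH(GUG)E2 were the most abundant tRNA rows in S228A, in an order that differed between libraries. tH(GUG)E2 had 561, 835 and 792 counts in S228A libraries, against 1, 5 and 1 in WT libraries, and its log2 fold change was 8.18 ± 0.31 (adjusted p = 6.67e-10, edgeR). tR(ACG)L, a second arginine gene with another anticodon, had 168, 256 and 154 counts in S228A libraries, against 3, 0 and 5 in WT libraries. Its log2 fold change was 6.08 ± 0.43 (adjusted p = 2.68e-07, edgeR). The S228A and WT libraries did not overlap in any of these rows, which were chosen for being called higher.

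The other 4 were lower in count. tA(AGC)P, an alanine gene, had 136, 204 and 135 counts in S228A libraries, against 2, 6 and 13 in WT libraries, and its log2 fold change was 4.44 ± 0.37 (adjusted p = 1.36e-06, edgeR). tI(AAU)I2, an isoleucine gene, had 70, 95 and 85 counts in S228A libraries and none in any WT or S228E library. With 3 counts over the WT group as the floor, it was at least 81.6-fold higher in S228A (adjusted p = 6.66e-06, edgeR). The floor covers counting error only. tG(GCC)G1, a glycine gene, had 30, 75 and 62 counts in S228A libraries, against 2, 3 and 1 in WT libraries, a log2 fold change of 4.68 ± 0.51 (adjusted p = 1.44e-05, edgeR). tD(GUC)L2, an aspartate gene, had 24, 35 and 22 counts in S228A libraries and none in WT libraries, at least 26.4-fold higher (adjusted p = 0.000106, edgeR). The S228A and WT libraries did not overlap in any of these rows, which were likewise chosen by their calls.

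**Figure D3:**
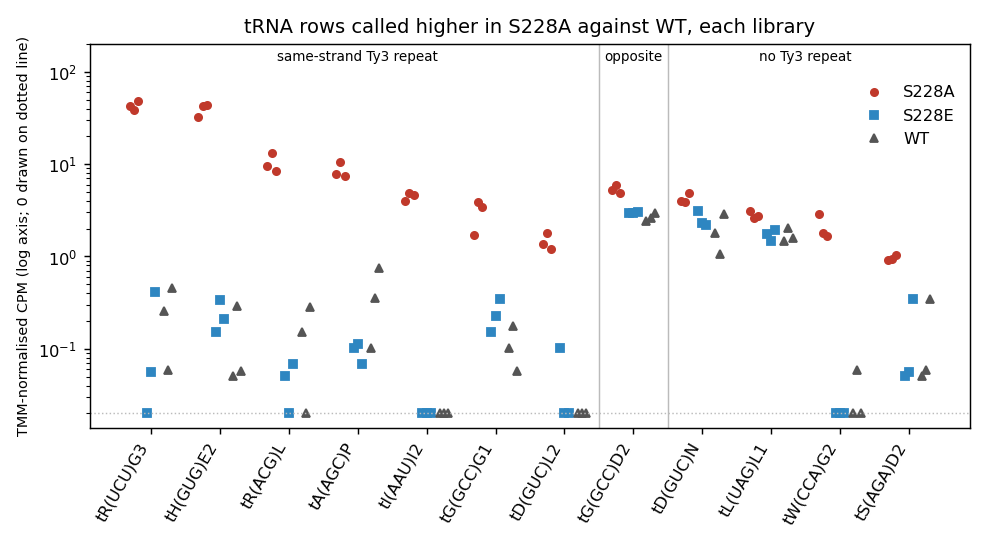
TMM-normalised CPM (log axis, with 0 drawn on the dotted line) of the 12 tRNA rows called higher in S228A against WT, for each library of S228A, S228E and WT. In the 7 same-strand rows every S228A library stands far above every S228E and WT library; in tG(GCC)D2, tD(GUC)N and tL(UAG)L1, with log2 fold changes of 0.99, 1.16 and 0.72, the strains stand close.

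The 5 same-strand rows that were not tested held few counts. tA(AGC)H, a second alanine gene, had 9, 20 and 16 counts in S228A libraries, none in S228E libraries and 0, 0 and 2 in WT libraries. Its counts in S228A and WT give a ratio of 22.0, with an exact 95% interval of 5.75 to 187.5 for counting error. tS(AGA)L had 8 counts in S228A in all, tP(UGG)N1 had 5 and tV(AAC)H had 2, and none of the 3 had a count in WT. tI(AAU)B had no count in any library. Of the 12 same-strand rows, 10 had every S228A library above every WT library, as a share of the library, as did 7 of the other 263 tRNA rows and 16.7% of all 7127 rows of the table.

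For every called same-strand row but tG(GCC)G1, copies of the same tRNA sequence that were not beside a same-strand repeat did not share these levels. The other 10 rows with the exonic sequence of tR(UCU)G3 had together 28 counts in S228A, 35 in S228E and 28 in WT, beside its own 2352, 7 and 14. The other 6 rows identical to tH(GUG)E2 had 44 counts in S228A, 26 in S228E and 44 in WT, beside its own 2188, 12 and 7. For tR(ACG)L the other 4 identical rows had 12, 6 and 16 counts in S228A, S228E and WT, beside its own 578, 2 and 8. tI(AAU)I2, with 250 counts in S228A, shared its sequence with 11 rows not beside a same-strand repeat, which had 26 counts in S228A, 33 in S228E and 37 in WT. The 9 such rows identical to tA(AGC)P had 2, 3 and 5 counts in S228A, S228E and WT, beside its own 475, 5 and 21. For tD(GUC)L2 the other 14 identical rows had 41, 30 and 56, beside its own 81, 2 and 0. Other sets of copies held rows that moved with S228A. The other 15 rows identical to tG(GCC)G1, tG(GCC)D2 among them, had 310 counts in S228A, 174 in S228E and 176 in WT, beside its own 167, 12 and 6. Of these, tG(GCC)D2 alone held 293, 156 and 144, and the remaining 14 rows 17, 18 and 32. The other 9 rows identical to tS(AGA)L, tS(AGA)D2 among them, had 87, 24 and 18, beside its own 8, 0 and 0. Of these, tS(AGA)D2 held 53, 7 and 8, and the remaining 8 rows 34, 17 and 10. How reads that fit several copies were placed is not known, and the split of counts among identical rows is uncertain to that extent.

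The same-strand rows shared stretches of the repeat of very different length. The longest run of bases common to the 300-base window of tR(UCU)G3 printed above and that of another same-strand row ranged from 8 bases, for tI(AAU)B, to 277. It was 277 bases for tA(AGC)P, 223 for tH(GUG)E2, 201 for tI(AAU)I2, 197 for tA(AGC)H and 175 for tR(ACG)L. For rows with few counts in S228A it was 121 bases for tP(UGG)N1, 77 for tV(AAC)H and 30 for tS(AGA)L. The run was 52 bases for tG(GCC)G1 and 20 for tD(GUC)L2, both called higher. Their repeats stand 46 and 47 bases away, and why these runs are short was not tested. TGAAACA in either orientation occurred in the window of 9 of the 12 same-strand rows (75%), of 20 of the 25 opposite-strand rows (80%) and of 36 of the 238 rows without a Ty3 repeat (15.1%). The share was 23.6% over all 275 tRNA rows and 7.11% over the windows of 6796 other nuclear rows. Of the 42 annotated Ty3 repeats, 37 held it somewhere in their length. In all 9 same-strand rows the motif read forward toward the tRNA, and tG(GCC)G1, called higher, had none in its window. Before tR(UCU)G3 the motif started 291 bases from the tRNA, near the far end of the 300-base window. A repeat that stands farther away, as that of tG(GCC)G1 does, could hold it outside the window. A motif match describes letters only and is no evidence that a factor bound there.

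The 5 called rows without a same-strand repeat changed less, except 1. tW(CCA)G2, a tryptophan gene with an intron, had 50, 35 and 30 counts in S228A libraries, none in S228E libraries and 0, 1 and 0 in WT libraries. The ratio of its counts in S228A over WT was 112.6, with an exact 95% interval of 19.8 to 4485 for counting error, and its edgeR adjusted p was 4.89e-05. No annotated Ty3 repeat lies within 500 bases of it, yet the window printed above holds TGAAACA once, forward, starting 164 bases before the tRNA. Its longest run in common with the tR(UCU)G3 window was 9 bases. The other 5 rows with its exonic sequence had 109 counts in S228A, 56 in S228E and 79 in WT. It was singled out after its values were seen. It also passed the filter only through its S228A counts, so its call is no support.

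tG(GCC)D2, a glycine gene beside an opposite-strand Ty3 fragment of 76 bases, had 91, 114 and 88 counts in S228A libraries, against 47, 45 and 52 in WT libraries, a log2 fold change of 0.99 ± 0.18 (adjusted p = 0.00107, edgeR). Its exonic sequence is identical to that of tG(GCC)G1, which stands beside a same-strand repeat and had a log2 fold change of 4.68. tS(AGA)D2, a serine gene, had 16, 18 and 19 counts in S228A libraries, against 1, 1 and 6 in WT libraries, a log2 fold change of 2.64 ± 0.63 (adjusted p = 0.00594, edgeR). Like tW(CCA)G2, tS(AGA)D2 passed the filter only through its S228A counts. tD(GUC)N, whose sequence occurs in no other row, had 70, 76 and 88 counts in S228A libraries, against 35, 18 and 50 in WT libraries, a log2 fold change of 1.16 ± 0.30 (adjusted p = 0.00901, edgeR). tL(UAG)L1, a leucine gene, had 55, 50 and 50 counts in S228A libraries, against 29, 35 and 28 in WT libraries, a log2 fold change of 0.72 ± 0.23 (adjusted p = 0.0275, edgeR). That call was lost without S228A replicate 1 or 3 and without WT replicate 1 or 3, with edgeR adjusted p between 0.0513 and 0.108. In all of these rows the S228A and WT counts per library did not overlap. The rows were chosen for being called higher, which makes such a gap likely. As a share of the library, every S228A library lay above every WT library in 16.7% of all 7127 rows.

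The 8 tested rows that were not called included some of the best-measured rows in WT. tN(GUU)P, an asparagine gene, was the most abundant tRNA row in WT at 3.48 ± 1.11 CPM. It had 76, 119 and 84 counts in S228A libraries, against 63, 43 and 82 in WT libraries, and its log2 fold change of 0.54 ± 0.25 did not pass (adjusted p = 0.113, edgeR); without WT replicate 3 it was 0.82 and passed (adjusted p = 0.0257, edgeR). tW(CCA)P, identical in exonic sequence to tW(CCA)G2 and beside an opposite-strand Ty3 fragment of 69 bases, had 46, 34 and 25 counts in S228A libraries, against 20, 35 and 22 in WT libraries. Its log2 fold change was 0.42 ± 0.36 (adjusted p = 0.408, edgeR), and the groups overlapped. The lowest of the 20 log2 fold changes was -1.48, for tX(XXX)L, whose name gives no anticodon; it was called lower only without WT replicate 2 (-1.93, adjusted p = 0.0171, edgeR). In order of WT level, tN(GUU)P at 3.48 CPM, tG(GCC)D2 at 2.67, tD(GUC)N at 1.90, tL(UAG)L1 at 1.71 and tW(CCA)P at 1.44 were the highest, and neighbours in this order differed by less than the larger of their SDs.

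By amino acid, the surplus fell on a few kinds of tRNA. Arginine rows together had 53.6 ± 2.38 counts per 1000000 in S228A, 1.07 ± 0.170 in S228E and 1.29 ± 0.236 in WT. Histidine rows had 40.1 ± 7.22 in S228A, 0.741 ± 0.0988 in S228E and 0.914 ± 0.537 in WT. Alanine rows had 9.60 ± 2.15 in S228A, 0.324 ± 0.102 in S228E and 0.983 ± 0.578 in WT (SD, n = 3 each). Every S228A library lay above every WT library for 8 of the 20 amino acids. Besides arginine, histidine and alanine these were glycine, aspartate, isoleucine, tryptophan and proline. The same held for 16.7% of all 7127 rows of the table, which are single rows and not sums. Every S228A library lay below every WT library for cysteine alone, at 0.0894 ± 0.0602 in S228A and 0.649 ± 0.413 in WT, where tC(GCA)B had 15 of its counts in WT replicate 3.

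**Figure D4:**
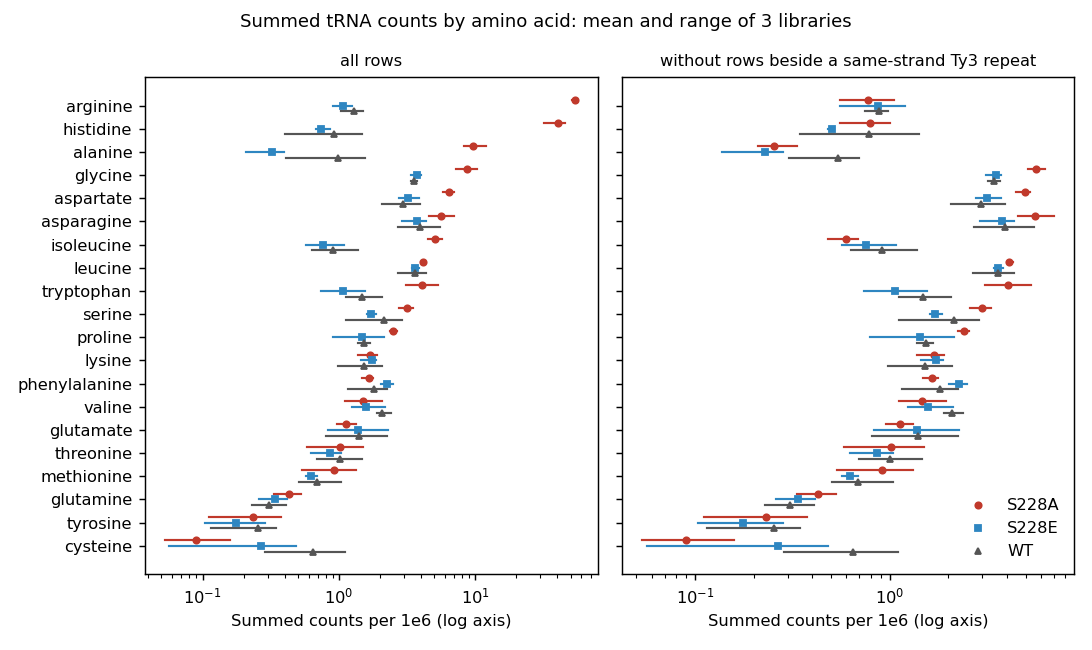
Summed tRNA counts per 1000000 gene counts (log axis) by amino acid, as the mean (marker) and range (line) of 3 libraries of S228A, S228E and WT, for all rows (left) and without the 12 rows beside a same-strand Ty3 repeat (right). Arginine, at 53.6 in S228A and 1.29 in WT with all rows, stands at 0.771 in S228A and 0.882 in WT on the right.

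Without the 12 same-strand rows the picture by amino acid was narrower. Arginine then had 0.771 ± 0.259 in S228A, 0.868 ± 0.322 in S228E and 0.882 ± 0.117 in WT, and histidine 0.789 ± 0.225 in S228A, 0.506 ± 0.0191 in S228E and 0.782 ± 0.568 in WT. Isoleucine had 0.595 ± 0.105 in S228A, 0.759 ± 0.281 in S228E and 0.910 ± 0.410 in WT. Glycine, aspartate, tryptophan and proline kept all S228A libraries above all WT libraries. Glycine had 5.66 ± 0.594 in S228A, 3.52 ± 0.333 in S228E and 3.44 ± 0.242 in WT, and tryptophan, to which tW(CCA)G2 belongs, 4.06 ± 1.16 in S228A, 1.07 ± 0.435 in S228E and 1.49 ± 0.511 in WT.

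No tRNA row was called in S228E against WT. Of the 20 tested tRNA rows, 0 were called by edgeR, DESeq2 or limma-voom; edgeR called 0.0489% of all tested rows, 0.0326% higher and 0.0163% lower. At an unadjusted p under 0.05 it had 1 of the 20, tA(AGC)P at a log2 fold change of -1.94 ± 0.77 (adjusted p = 0.767, edgeR), and 5.63% of all tested rows. tA(AGC)P had 2, 2 and 1 counts in S228E libraries, against 2, 6 and 13 in WT libraries, a range that overlaps. The median log2 fold change of the 20 rows was -0.15 in S228E against WT, and -0.0037 over all tested rows. At these counts, small differences between S228E and WT were not detectable.

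Set against each other, S228E was the lower mutant. In S228E against S228A, 13 of the 20 rows were called lower and 0 higher, where 4.35% of all tested rows were called lower, 6.73% higher and 11.1% in all. No tRNA row was higher at an unadjusted p under 0.05; DESeq2 called 14 lower and limma-voom 13, and neither called any higher. This comparison shares its S228A libraries with that of S228A against WT. The 7 tested same-strand rows were among the 13; they had passed the filter only through their S228A counts, so this too is a description. tR(UCU)G3 had 0, 1 and 6 counts in S228E libraries, against 738, 738 and 876 in S228A libraries, a log2 fold change of -8.23 ± 0.39 (adjusted p = 5.69e-09, edgeR). tH(GUG)E2 had 3, 6 and 3 counts in S228E libraries, against 561, 835 and 792 in S228A libraries, a log2 fold change of -7.38 ± 0.29 (adjusted p = 8.20e-10, edgeR). tW(CCA)G2, with no count in S228E, was at least 35.4-fold lower there than in S228A. Called in this comparison but not in S228A against WT were tN(GUU)P, at -0.73 ± 0.25 (adjusted p = 0.0448, edgeR), and tP(UGG)M, a proline gene, at -1.10 ± 0.38 (adjusted p = 0.0445, edgeR). Those calls and that of tL(UAG)L1 were lost when any of several single libraries was left out, and tD(GUC)N was not called (-0.73 ± 0.29, adjusted p = 0.0726, edgeR).

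Gene rows next to the tested and same-strand tRNA rows were mixed. Of the 12 nearest rows after the 3′ end of same-strand tRNA rows, 2 were called higher in S228A against WT. Before the 5′ end, 5 of 12 were, beside 4.37% of all tested rows. These 5 included the Ty3 reading frame YIL082W-A, before tI(AAU)I2, at a log2 fold change of 4.63. Retrotransposon reading frames were not separated from other genes among the neighbours, so these counts do not describe ordinary genes alone. Of the nearest rows after the 3′ end of the other 13 tested tRNA rows, 0 were called. Of those before the 5′ end, 4 were called higher by edgeR: YDR261W-B, before tS(AGA)D2, at a log2 fold change of 2.48, YPR137C-B, before tN(GUU)P, at 2.29, YNL054W-B, before tD(GUC)N, at 1.23 and YDR261C-D, before tG(GCC)D2, at 0.98. YNL042W-B, which overlaps tP(UGG)N1, was called higher at 3.82. After tI(AAU)I2 lies AIR1, an RNA-binding subunit of the TRAMP nuclear RNA surveillance complex, on the other strand and 184 bases on; it had 83.5 ± 8.85 CPM in S228A, 19.1 ± 2.45 in S228E and 15.5 ± 2.23 in WT, a log2 fold change of 2.43 ± 0.12 (adjusted p = 1.12e-08, edgeR). After tP(UGG)N1 lies BOP3, 903 bases on and on the same strand, with a log2 fold change of 1.87 ± 0.13 (adjusted p = 2.32e-07, edgeR). The rows after the 2 most abundant tRNA rows did not pass, with log2 fold changes of 0.20 ± 0.09 for PPT1, after tR(UCU)G3, and 0.18 ± 0.09 for GLC7, after tH(GUG)E2. Before tR(UCU)G3, on the other strand, YGR122C-A had 74.2 ± 4.29 CPM in S228A, 5.51 ± 0.654 in S228E and 6.48 ± 1.29 in WT (log2 fold change 3.51 ± 0.13, adjusted p = 6.67e-10, edgeR). The counting used no strand, so overlapping transcripts of the 2 strands cannot be told apart in these rows.

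The reading frames of Ty3 and the genes of the pheromone response were also higher in S228A. YIL082W-A, the Ty3 frame whose repeat stands before tI(AAU)I2, had 1547 ± 143.4 CPM in S228A, 59.8 ± 2.67 in S228E and 62.3 ± 6.51 in WT, and YGR109W-B, another Ty3 frame, 976.4 ± 139.8 in S228A, 36.4 ± 3.20 in S228E and 37.3 ± 4.09 in WT. All 5 pheromone response markers (FUS1, FIG1, AGA1, PRM6 and FUS2, genes of mating and cell fusion) were called higher in S228A against WT. Their summed level was 6023 to 6900 CPM in S228A libraries, 142.9 to 158.5 in S228E libraries and 105.8 to 171.6 in WT libraries. All 4 markers of a cells, STE2, MFA1, MFA2 and BAR1, were called higher, with sums of 5562 to 6741 CPM in S228A libraries, 1304 to 1426 in S228E libraries and 1176 to 1455 in WT libraries. Of the 3 alpha cell markers SAG1, an agglutinin, was called higher, and STE3, the receptor that defines alpha cells, had 3.04 ± 0.138 CPM in S228A, 2.49 ± 0.180 in S228E and 3.22 ± 1.08 in WT. The 3 alpha markers summed to 124.8 to 191.3 CPM in S228A libraries, 50.9 to 55.0 in S228E libraries and 49.1 to 55.3 in WT libraries. None of these 12 markers was at 0 in any library, and their part in the tRNA counts was not tested.

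Few genes that make or process tRNA passed both thresholds. Of 137 such genes in 6 lists, 3 were called higher and 3 lower in S228A against WT, or 4.38%, against 12.2% of all tested rows. At an unadjusted p under 0.05 with any fold change, edgeR had 69 of the 137 (50.4%) and 44.7% of all tested rows. Of 11 genes for TFIIIB, TFIIIC, TFIIIA and the polymerase III repressor Maf1, 2 fell, both subunits of TFIIIC. TFC1 had 23.7 ± 0.366 CPM in S228A and 40.8 ± 1.38 in WT, a log2 fold change of -0.78 ± 0.07 (adjusted p = 2.87e-06, edgeR), and TFC4 24.0 ± 0.766 CPM in S228A and 40.1 ± 1.17 in WT, a log2 fold change of -0.74 ± 0.08 (adjusted p = 1.63e-05, edgeR). The list's median log2 fold change was -0.18. Of 19 genes of end processing and splicing, 1 fell: SEN34, a catalytic subunit of the tRNA splicing endonuclease, had a log2 fold change of -1.07 ± 0.13 (adjusted p = 4.33e-05, edgeR).

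Of 23 cytosolic aminoacyl-tRNA synthetase genes, 2 rose. YDR341C, the arginyl-tRNA synthetase, had a log2 fold change of 0.72 ± 0.07 (adjusted p = 3.87e-06, edgeR) and GRS2, a glycyl-tRNA synthetase, one of 0.59 ± 0.07 (adjusted p = 2.33e-05, edgeR); the list's median was 0.27, and 16 of the 23 were higher at an adjusted p under 0.05 by edgeR with any fold change, as were 15.5% of all tested rows. Of 55 tRNA modification genes, 1 rose, TRM12, which acts in wybutosine synthesis on phenylalanine tRNA, at 0.60 ± 0.12 (adjusted p = 0.00197, edgeR). None of the 17 RNA polymerase III subunit genes was called by edgeR, DESeq2 or limma-voom, and their median log2 fold change was 0.17. By edgeR, 7 of the 17 had an unadjusted p under 0.05, beside 44.7% of all tested rows. At an adjusted p under 0.05 by edgeR with any fold change, 5 were higher and 0 lower. Likewise none of the 12 genes of tRNA export and turnover was called by these 3 tools, and their median was 0.08. By edgeR, 7 of the 12 had an unadjusted p under 0.05, beside the same 44.7%. In S228E against WT, 0 of the 137 genes were called by edgeR, DESeq2 or limma-voom. By edgeR, 4 of the 137 had an unadjusted p under 0.05, beside 5.63% of all tested rows. SET1 itself had 203.1 ± 18.1 CPM in S228A, 218.9 ± 15.1 in S228E and 199.8 ± 6.25 in WT, and its counts do not check the substitutions.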

How the data were processed

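Raw counts for 9 libraries were deposited in 1 table with a row per gene, made with featureCounts 2.0.1 on paired reads by exon and gene_id, per the file headers. The strand and multiple-placement options are absent from that command. No source used here gives the aligner; Bowtie 0.12.2 and the sacCer3 build stand, with no role, in the submitters' processing notes. Per the labels, extraction was by chromatin immunoprecipitation; the series design text instead has total RNA from phenol-chloroform. The table's columns carry a letter and a number, matched to the strain initials and replicate numbers of the titles.

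Counts were tested with edgeR 4.0.16 (quasi-likelihood, TMM, filterByExpr) in R 4.3.3, in 1 fit of the 9 libraries without a block; thresholds follow the series design text. The fit was tested on simulated data. DESeq2 1.42.0, limma-voom (limma 3.58.1), other filters and scalings, and leaving out each library were the alternatives. CPM of single rows use TMM factors; sums use library totals. Same-numbered replicates did not deviate together, so the numbers do not pair the samples. Named are the tested rows, with values per library for the 10 with the smallest p in S228A against WT and the 5 highest in WT, up to 5 untested rows, called list genes, and neighbours. The members and lists were chosen with earlier results of these data known. Repeats, sequences and motifs came from RefSeq R64.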

Additional observations from a re-analysis of the deposited data

How the results depend on the processing

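In S228A against WT, 12 tRNA rows were called; requiring a mean of at least 1 CPM over WT left 6 tRNA rows tested and 3 called, and in S228E against S228A that filter left 3 of 13 called, since it removes the rows that are near 0 outside S228A. Leaving out 1 library at a time gave 11 to 14 called tRNA rows in S228A against WT and 10 to 16 in S228E against S228A. With a replicate block the counts were 12 and 10; the correlations between same-numbered libraries lay between -0.25 and 0.23. The 3 rows of the whole table called in S228E against WT became 5 with DESeq2, 1 with only the 2 strains compared, 1 with the replicate block, and 1 to 3 with 1 library left out; it was 1 without S228E replicate 3, WT replicate 1 or WT replicate 2. Without the 12 called rows the summed tRNA counts per 1000000 were 26.8 in S228A, 22.9 in S228E and 26.1 in WT, and without tR(UCU)G3 109.3 in S228A. The log2 fold change of tS(UGA)E in S228A against WT, -0.11, became 0.015 with limma-voom and -0.47 (without WT replicate 1) to 0.15 (without WT replicate 3) with 1 library left out, reversing without S228A replicate 2 (0.05), WT replicate 2 (0.06) and WT replicate 3. That of tP(UGG)N2 in S228E against S228A, -0.33, ranged from -0.68 without S228E replicate 1 to 0.085 without S228A replicate 1. The cause of these shifts was not tested. Of the other values for single tRNA rows under these alternatives, 610 kept direction and call, 26 lost the call and 7 gained it. The filter on low counts left 20 of the 275 tRNA rows to test; with none, 218 were tested.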

Other observations

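Other retrotransposon repeats were set against the same counts. Of the 238 tRNA rows without a Ty3 repeat within 500 bases, 135 had a Ty1, Ty2, Ty4 or Ty5 repeat there and summed to 23.9 ± 1.39 counts per 1000000 in S228A, 16.9 ± 2.21 in S228E and 18.1 ± 1.79 in WT. The 103 rows with no repeat of any family summed to 8.86 ± 0.608 in S228A, 8.31 ± 1.07 in S228E and 9.08 ± 1.01 in WT (SD, n = 3 each). Among these, tW(CCA)G2 alone held 115 counts in S228A, 0 in S228E and 1 in WT. The summed level of the remaining rows in S228A therefore lay below 8.86, while that in WT, less 1 count, stayed near 9.08. This difference was not tested. Of the 8 tested rows of the first kind 3 were called higher in S228A against WT, and of the 3 of the second kind 1, tW(CCA)G2. Of all tested rows, 4.37% were called higher. Of the called rows, tW(CCA)G2 and, in the first kind, tS(AGA)D2 passed the filter only through their S228A counts.

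Without a filter on low counts, 218 tRNA rows could be tested in S228A against WT, and the rows called beyond the 12 were tA(AGC)H at a log2 fold change of 4.22 (adjusted p = 0.00254, edgeR), tQ(UUG)C at 4.61 (adjusted p = 0.0411, edgeR) and tT(AGU)N1 at -4.63 (adjusted p = 0.0432, edgeR). The last 2 rest on a few counts.

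The untested rows with the most counts were tF(GAA)H1 and tH(GUG)M with 72 each over the 9 libraries, tT(AGU)D with 62, tV(AAC)G3 with 60 and tK(UUU)L with 58. tF(GAA)H1, a phenylalanine gene, had 4, 5 and 5 counts in S228A libraries, 18, 9 and 12 in S228E libraries, and 9, 9 and 1 in WT libraries. All 24 mitochondrial tRNA rows had 0 counts in every library.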
